A study of Mus musculus with 5 samples.

Results

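Ubiquitin-specific proteases (Usp genes) form the largest family of deubiquitinases, the enzymes that take ubiquitin off other proteins. They were followed here together with 4 deubiquitinases added by name, Cyld, Tnfaip3, Otulin and Uchl3. The members are the genes of the expression table that have a value and whose symbol is Usp followed by a number, or 1 of those 4 names. Of 60 such genes listed, 54 had a value, out of 16003 genes with a value in all. The symbol rule also takes in Usp6nl, whose product is a GTPase-activating protein and not a protease. The study profiled messenger RNA of RAW264.7 cells, a mouse line of monocyte/macrophage type, and asked how the cells differ when mouse Cd137 is introduced. Control cells expressed Renilla luciferase alone, and CD137 cells expressed Renilla luciferase together with Cd137, so the luciferase is common to both groups. Neither the promoter driving the introduced genes nor whether the lines are clones or pools is stated in the labels. The series has 2 control and 3 CD137 samples, of which control replicate 2 and CD137 replicates 2 and 3 were analysed here.

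Ubiquitin is attached to proteins by a chain of activating, conjugating and ligating enzymes, and deubiquitinases reverse or edit that mark. Chains of different linkage carry different messages: some send a protein to the proteasome, whereas chains linked through lysine 63 or head to tail (linear chains) build the signalling platforms beneath TNF receptor family members. CD137, encoded by Tnfrsf9, is such a receptor and signals through TRAF adaptors to NF-kB. Cyld, Tnfaip3 (A20) and Otulin are the classical brakes on that pathway, since they act on lysine 63-linked or linear chains. In macrophages they limit inflammatory gene expression, and Cyld and A20 are also known to restrain osteoclast formation.

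Levels are given in FPKM, which scales fragments by transcript length and library depth, so that genes can be compared. Tnfrsf9 checks the labels, at 5.06 FPKM in the control and 364 and 370 FPKM in the CD137 libraries. Depth in the CD137 libraries, inferred from the authors' pairwise p-values, was 0.983 and 0.988 of the control. Of 10 macrophage markers, 9 reached 1 FPKM in some library (all but Mrc1, the mannose receptor), and their summed level was 3122 FPKM in the control against 1964 and 2012 FPKM with CD137. Most of that difference is Lyz2 (lysozyme), at 1693 FPKM in the control and 646 and 669 FPKM with CD137. Cd68, Csf1r and Cd14 were also called lower, Adgre1, Itgam, Ptprc and Fcgr1 were called higher, and Spi1 did not pass. The sum of the epithelial and breast tumour markers Epcam, Krt8, Krt18, Krt5 and Cdh1 was 0.67 FPKM in the control against 6.31 FPKM (replicate 2) and 1.17 FPKM (replicate 3) with CD137. Its part in the results was not tested. The values of both CD137 libraries are given for many genes, and others carry only the fold of the mean. Only 1 control library was used, which leaves no replicate error for that group, and separate cultures are not mentioned for the CD137 libraries. P-values here rest on how far these libraries differ from each other, possibly for technical reasons alone, and take the control to vary as the CD137 libraries do.

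Most of the family was present in these cells. Of the 54 members, 45 reached 1 FPKM in at least 1 library and are called expressed. Their median level in the control was 13.3 FPKM, against 14.5 FPKM for all 10720 expressed genes. The summed level of all members was 901 FPKM in the control and 934 and 927 FPKM in the CD137 libraries. The proteasome-bound Usp14 was the highest in the control (82.3 FPKM), followed by Usp15 (69.2 FPKM), Usp1 (60.5 FPKM), the spliceosomal Usp39 (57.4 FPKM), Uchl3 (54.4 FPKM) and Usp5 (46.0 FPKM). In both CD137 libraries Uchl3 stood above Usp1 and Usp39, while in the control it stood below them. At the low end of the expressed members, Usp35 was at 1.08 FPKM, Usp49 at 2.10 FPKM, Usp54 at 2.35 FPKM and Usp18 at 2.50 FPKM in the control. The plot of levels by library shows that the order of the family was largely kept and that no expressed member was switched on from 0.

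**Figure D1:**
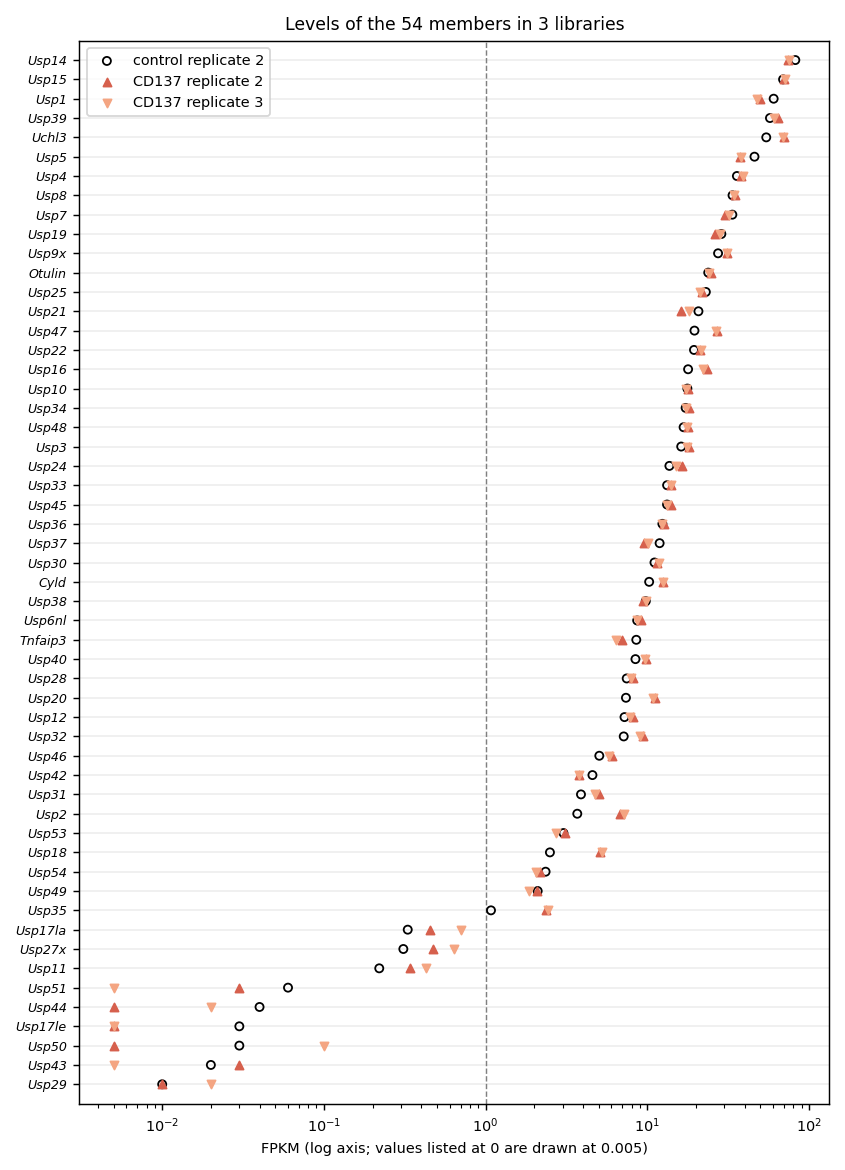
Levels of the 54 members in control replicate 2 (open circles) and CD137 replicates 2 and 3 (triangles), in FPKM on a log axis, ordered by the control, with a dashed line at 1 FPKM. Levels run from 82.3 FPKM (Usp14 in the control) down to 0, and 9 members lie below 1 FPKM in every library.

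In the limma fit of the expressed genes, 10 members rose and 6 fell with CD137, and 29 did not pass an adjusted p of 0.05. That is 35.6 percent of the expressed members, against 42.6 percent of all expressed genes past the threshold. By direction, 24.4 percent of all expressed genes were called higher and 18.2 percent lower. The share of members called was thus below the background, and the family as a whole is not singled out by its count. The median log2 fold change was 0.060 over the expressed members and 0.030 over all expressed genes, both on the log2(FPKM + 1) scale, where differences of low genes come out too small. The members also changed by less in size, with a median absolute log2 difference of 0.13 against 0.19. Both CD137 libraries lay above the control for 28 members (49 percent of all expressed genes did) and below it for 12 (40.2 percent of all expressed genes), and 5 had the control between or level with them. A change in mean FPKM of at least 1.5-fold was found for 3 members, Usp35, Usp18 and Usp2, all upward, while 12.4 percent of all expressed genes differed by that much. In the limma fit without a filter on low values 0 members passed, with 17 of 54 at an unadjusted p under 0.05. "Rose" and "fell" below refer to the fit of expressed genes. In a simulation with 200 of 10617 genes changed, that fit recovered 6 percent of 1.2-fold changes. Here 42.6 percent of expressed genes were called, so that share need not hold for these data. Even so, "did not pass" does not mean unchanged.

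**Figure D2:**
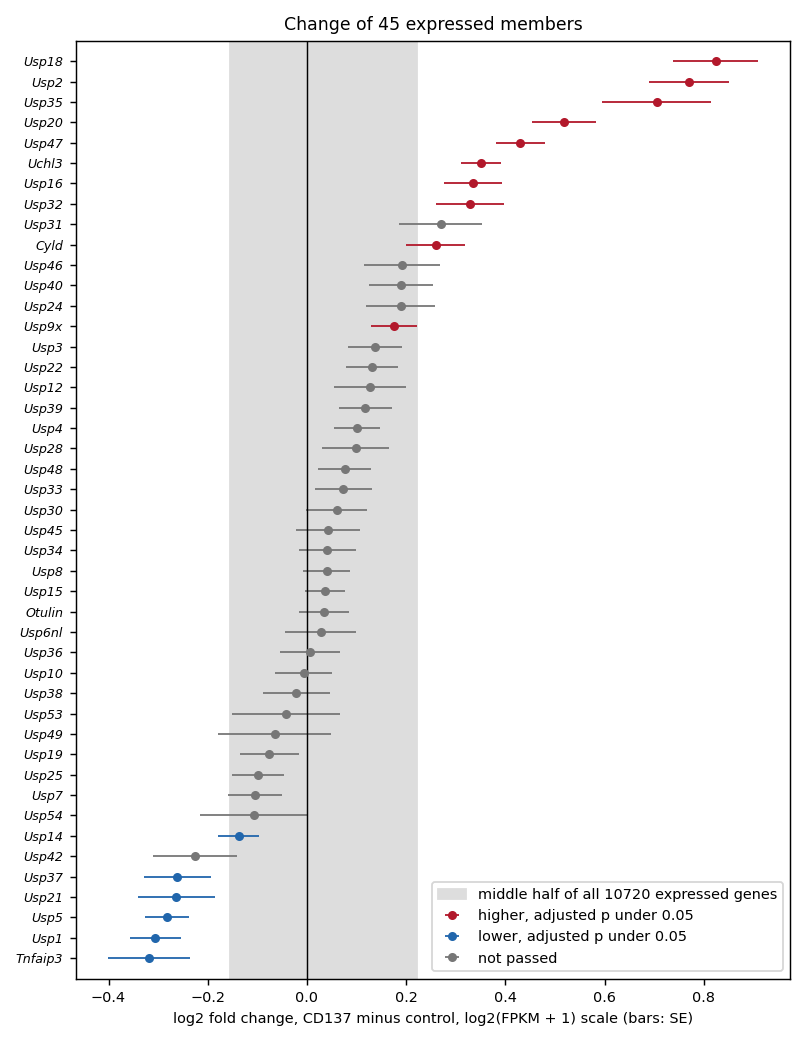
Log2 fold change (CD137 minus control) of the 45 expressed members with its standard error, on the log2(FPKM + 1) scale, red for higher, blue for lower and grey for not passed. The grey band runs from the lower to the upper quartile of all expressed genes, -0.15 to 0.22, and Usp18 (0.82) and Tnfaip3 (-0.32) mark the ends of the family.

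The brakes on NF-kB did not move together. Tnfaip3 fell, Cyld rose and Otulin did not pass. Their promoters are shown because Tnfaip3 is a textbook NF-kB target gene while these 2 members moved in opposite directions. Of 41 members with a promoter window in RefSeq (GRCm38.p6, 250 bases before to 50 after the start, both strands searched), Cyld, Tnfaip3 and Usp27x held a match to the NF-kB consensus, and Usp27x is not among the expressed members. A match was found for 2 of 35 expressed members with a window and for 6.15 percent of expressed genes, and in 4.51 percent of all windows. The windows of the expressed members are printed 5′ to 3′ on the gene's strand, with the matches in capitals, for Cyld at chr8:88696778-88697077 (plus strand) and for Tnfaip3 at chr10:19015361-19015660 (minus strand, 1 of its 2 windows). A match is a description of letters, not a site shown to be bound. Of the other motifs searched, an interferon-stimulated response element was matched in 1 expressed member (Usp49, 3.73 percent of expressed genes). The E2F motif TTTCCCGC was matched in 1 expressed member (Usp19, 2.58 percent of expressed genes). Another E2F motif, TTTGGCGC, was matched in 0 expressed members (1.21 percent of expressed genes). Neither Usp49 nor Usp19 was past the threshold. Usp18 is among the members without a window.
Cyld: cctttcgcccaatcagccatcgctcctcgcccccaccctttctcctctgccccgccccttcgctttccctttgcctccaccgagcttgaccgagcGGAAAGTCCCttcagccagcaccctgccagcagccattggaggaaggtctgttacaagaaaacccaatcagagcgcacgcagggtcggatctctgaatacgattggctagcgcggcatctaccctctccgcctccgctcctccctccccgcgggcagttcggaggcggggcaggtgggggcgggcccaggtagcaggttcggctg
Tnfaip3: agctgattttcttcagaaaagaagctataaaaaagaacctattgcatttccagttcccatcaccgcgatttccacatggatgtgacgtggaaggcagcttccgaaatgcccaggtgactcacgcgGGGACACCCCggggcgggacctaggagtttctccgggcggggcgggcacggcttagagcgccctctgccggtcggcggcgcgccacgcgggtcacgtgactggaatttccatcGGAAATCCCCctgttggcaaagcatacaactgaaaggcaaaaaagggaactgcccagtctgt

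Tnfaip3 (gene ID 21929, chromosome 10 from 19000910 to 19015410 in mm10, minus strand) encodes A20, which trims lysine 63-linked chains and marks RIPK1 for degradation. Its level was 8.55 FPKM in the control against 6.97 FPKM (replicate 2) and 6.36 FPKM (replicate 3) with CD137. Both CD137 libraries lay below the control. With CD137 it averaged 6.67 ± 0.43 FPKM (SD, n = 2), which was 0.780 of the control, a log2 fold change of -0.32 ± 0.08 (SE, limma adjusted p = 0.033). The reads behind these values were 680 in the control, 546 and 502 in the CD137 libraries. Scaled by depth, the ratio to the control was 0.817 (exact 95% interval 0.729 to 0.916) in replicate 2 and 0.747 (0.665 to 0.840) in replicate 3. Cyld (gene ID 74256, chromosome 8 from 88697001 to 88751946, plus strand), a tumour suppressor that cleaves lysine 63-linked and linear chains, went the other way. It was at 10.3 FPKM in the control and at 12.5 FPKM in each CD137 library, a mean of 12.5 ± 0.028 FPKM. The 2 CD137 values differed by far less than their distance from the control. The log2 fold change was 0.26 ± 0.06 (SE, limma adjusted p = 0.0236), a 1.22-fold rise, on 1493 control reads against 1781 and 1789. Otulin, which cleaves linear chains only, was at 23.8 FPKM in the control and 24.6 and 24.2 FPKM with CD137. Its log2 fold change of 0.034 ± 0.050 (SE) did not pass (limma adjusted p = 0.609), and its read ratios of 1.04 (exact 95% interval 0.926 to 1.16) and 1.02 (0.909 to 1.14) bound the difference between these libraries. With the libraries rescaled by the median of ratios the sign of the Otulin difference turned (-0.013).

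Of 9 expressed members with reported roles in TNF receptor and NF-kB signalling, Cyld rose, Tnfaip3 and Usp21 fell and 6 did not pass. The share called was 33.3 percent, against 42.6 percent of all expressed genes. Usp21, which acts on RIPK1 and on histone H2A, was at 20.7 FPKM in the control and 16.2 and 18.0 FPKM with CD137, 0.826 of the control (log2 fold change -0.26 ± 0.08 SE, limma adjusted p = 0.0467). Its CD137 libraries differed from each other more than those of most members, and without the mean-variance trend the call was lost (limma adjusted p = 0.0866). Usp31 was at 3.89, 5.01 and 4.78 FPKM (1.26-fold), and missed the threshold (limma adjusted p = 0.0552) but passed without the trend. Usp15, the second highest member, was at 69.2, 70.5 and 71.5 FPKM on 11335, 11232 and 11464 reads, and its log2 fold change of 0.037 ± 0.040 (SE) did not pass. Usp4, Usp25 and Usp48 did not pass either, at 1.07-fold, 0.931 and 1.06-fold of the control.

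Around these proteases, the machinery that builds lysine 63-linked and linear chains moved in parts. Of 31 listed genes 30 were expressed, 10 rose and 3 fell (43.3 percent called, median log2 fold change 0.055), a share close to the 42.6 percent of all expressed genes. The genes with the largest differences were Birc3 (2.33-fold), the autophagy receptor Sqstm1 (p62), Traf1 and Tnip3. Sqstm1, which binds ubiquitin chains, was at 352 FPKM in the control and 670 and 664 FPKM with CD137, a 1.90-fold rise. Traf1, a TRAF adaptor of CD137, rose 2.01-fold, and Tnip3, an A20-binding inhibitor of NF-kB, fell to 0.543 of the control. Tnip1, the best known A20 partner, rose 1.14-fold. Ripk1, the kinase that A20, Cyld and Usp21 act on, fell from 13.9 FPKM to 9.30 and 9.64 FPKM (0.681 of the control, limma adjusted p = 0.00435). Spata2, the adaptor that brings Cyld to the receptor complex, fell to 0.800 of the control while Cyld itself rose. Traf2 rose 1.31-fold and Traf3, at 6.61 FPKM in the control, did not pass. The 3 subunits of the linear chain assembly complex did not pass, Rnf31 at 0.884, Rbck1 at 0.915 and Sharpin at 0.995 of the control.

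Usp18, the protease that removes the ubiquitin-like modifier ISG15 and also dampens type I interferon receptor signalling, had the largest difference of all members on the log2(FPKM + 1) scale. By fold of mean FPKM, and with a pseudocount of 0.1, Usp35 stood above it. The gene (gene ID 24110, chromosome 6 from 121245906 to 121270917) stood at 2.50 FPKM in the control against 5.11 FPKM (replicate 2) and 5.28 FPKM (replicate 3) with CD137. Both CD137 libraries were above the control by far more than they differed. Averaged, the CD137 level was 5.20 ± 0.12 FPKM (SD, n = 2), 2.08 times that of the control, with a log2 fold change of 0.82 ± 0.09 (SE, limma adjusted p = 0.00274). It rests on 79 reads in the control and 159 and 165 in the CD137 libraries, so the counting intervals of the read ratios are wide, 1.55 to 2.72 and 1.61 to 2.80. All 7 genes of the ISG15 conjugation list were expressed, of which 5 rose and 0 fell (71.4 percent called, against 42.6 percent of all expressed genes). That list also holds genes of interferon receptor signalling, with Ifnar2 among the 5 that rose. Isg15 itself rose from 1.81 FPKM to 3.21 and 2.96 FPKM (1.70-fold). Uba7, its activating enzyme, rose 1.44-fold, the conjugating enzyme Ube2l6 rose 1.27-fold, and Ifnar2, the receptor subunit that USP18 binds, rose 1.38-fold. Herc6, the mouse ISG15 ligase, was at 1.53 FPKM in the control and 1.19 and 1.05 FPKM with CD137 and did not pass. The median log2 fold change of these 7 genes was 0.32.

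The next largest rises on the log2(FPKM + 1) scale were those of Usp2, Usp35, Usp20 and Usp47. Usp2 (gene ID 53376, mm10 chromosome 9, 44067021 to 44095627), a protease known to stabilise cyclin D1 and MDM2, was at 3.69 FPKM in the control and 6.79 and 7.22 FPKM with CD137. The rise was 1.90-fold (log2 fold change 0.77 ± 0.08 SE, limma adjusted p = 0.00283), on 216 control reads against 389 and 416. Usp35 (gene ID 244144, mm10 chromosome 7, 97309380 to 97332287) was the lowest expressed member in the control, at 1.08 FPKM, and at 2.35 and 2.43 FPKM with CD137. Its FPKM rose 2.21-fold (log2 fold change 0.70 ± 0.11 SE, limma adjusted p = 0.00802), but its reads, 107 against 203 and 207, rose 1.94-fold after scaling by depth. FPKM also depends on the transcript lengths assigned to a gene, and for Usp35 the FPKM ratio was 1.14 times the read ratio, the widest gap among expressed members with a single solution. The search for reads allowed a deviation of at most 15 percent, so much wider gaps could not be found. With genes kept only at 5 FPKM or more, Usp35 is no longer tested. Usp20 (gene ID 74270, chromosome 2 from 30982279 to 31022655), which binds the VHL ubiquitin ligase and recycles surface receptors, was at 7.38 FPKM in the control and 11.1 and 10.9 FPKM with CD137, a 1.49-fold rise (log2 fold change 0.52 ± 0.06 SE, limma adjusted p = 0.00419). Usp47 (gene ID 74996, chromosome 7 from 112023483 to 112111386) acts on DNA polymerase beta in base excision repair. It was at 19.6 FPKM in the control and 26.9 and 26.6 FPKM with CD137, a 1.36-fold rise on 1964, 2648 and 2642 reads (log2 fold change 0.43 ± 0.05 SE, limma adjusted p = 0.00358). In each of these genes the CD137 libraries lay close together and above the control. The plot of read ratios shows the counting error behind each.

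**Figure D3:**
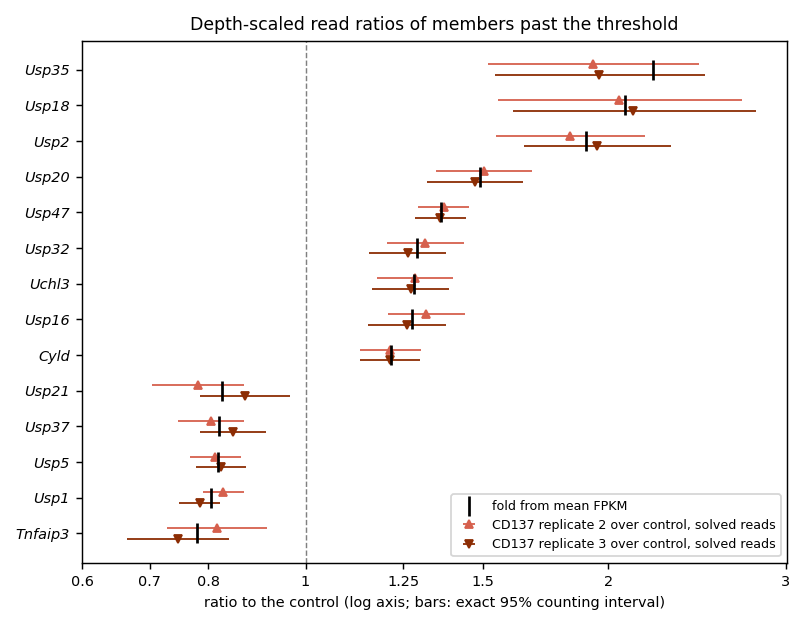
Ratio of reads in each CD137 library to the control, scaled by depth, on a log axis with exact 95% counting intervals, for the members past the threshold whose reads have a single solution. The black tick is the fold from mean FPKM. All intervals lie on 1 side of 1, from 0.747 for Tnfaip3 in replicate 3 to 2.11 for Usp18 in replicate 3, and the tick of Usp35 lies to the right of both its read ratios.

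Smaller rises were found for Usp16, Usp32 and Usp9x. Usp16, a histone H2A deubiquitinase needed for mitosis, was at 17.9 FPKM in the control and 23.5 and 22.2 FPKM with CD137 (1.28-fold, limma adjusted p = 0.0108). Its gene span, introns included, shares 191 bases with the oppositely oriented Cct8, at 200 FPKM in the control and 190 and 187 FPKM with CD137. Reads from shared exons cannot be told apart without strand information, and their part in the Usp16 values was not tested. Usp32, a membrane-associated protease that acts on the GTPase RAB7, was at 7.15 FPKM in the control and 9.43 and 9.04 FPKM with CD137 (1.29-fold, limma adjusted p = 0.0184). Usp9x, a very large X-linked protease known to stabilise MCL1, was at 27.4 FPKM in the control and 31.1 and 31.0 FPKM with CD137. That rise of 1.13-fold passed (limma adjusted p = 0.0365) but lost the call with rescaled libraries (0.0824) and without the trend (0.0746). The other very large members, Usp24 and Usp34, were at 1.15-fold and 1.03-fold of the control and did not pass.

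The enzymes that recycle ubiquitin split by direction, with Usp5 and Usp14 lower and Uchl3 higher. Usp5 (gene ID 22225, chromosome 6 from 124815019 to 124829484), or isopeptidase T, takes apart free ubiquitin chains. It was at 46.0 FPKM in the control and 37.5 and 37.9 FPKM with CD137. With CD137 it averaged 37.7 ± 0.33 FPKM (SD, n = 2), 0.819 of the control, a log2 fold change of -0.28 ± 0.04 (SE, limma adjusted p = 0.00821), on 2616 reads against 2092 and 2129. Usp14, which trims chains at the proteasome, was at 82.3 FPKM in the control and 73.9 and 75.6 FPKM with CD137. It fell to 0.908 of the control (limma adjusted p = 0.0482) and missed the threshold without the trend (0.127). The gene span of Usp14, introns included, shares 1870 bases with the oppositely oriented Thoc1. Thoc1 was at 14.2 FPKM in the control and 16.0 and 14.7 FPKM with CD137. Uchl3 (gene ID 50933, chromosome 14 from 101653881 to 101696125), of the ubiquitin C-terminal hydrolase family, frees ubiquitin and NEDD8 from their precursors. It was at 54.4 FPKM in the control and 70.1 and 69.4 FPKM with CD137, a 1.28-fold rise (log2 fold change 0.35 ± 0.04 SE, limma adjusted p = 0.00358). Its relative Uchl5, a proteasome-bound enzyme outside the members, fell from 61.1 FPKM to 45.1 and 43.6 FPKM (0.725 of the control, limma adjusted p = 0.0026).

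Genes of ubiquitin supply went both ways. The polyubiquitin gene Ubb fell from 770 FPKM to 568 and 588 FPKM (0.750 of the control). Rps27a, which encodes ubiquitin fused to a ribosomal protein, rose 1.16-fold. Uba1, the main activating enzyme, fell to 0.750 and Sumo2 to 0.740 of the control. Among 35 listed deubiquitinases of other classes 25 were expressed, of which 4 rose and 3 fell (28.0 percent called, below the 42.6 percent of all expressed genes, with a median log2 fold change of -0.006). Besides Uchl5, the BRCA1-associated Bap1 fell to 0.829 of the control, whereas Zranb1 (TRABID) and Otud7b (Cezanne) rose 1.21-fold and 1.18-fold.

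Of 9 expressed members of chromatin and DNA repair, Usp16 and Usp47 rose, Usp1 fell and 6 did not pass (33.3 percent called, against 42.6 percent of all expressed genes). Usp1 (gene ID 230484, chromosome 4 from 98923623 to 98935543) takes ubiquitin off PCNA and FANCD2 in complex with WDR48. Its level was 60.5 FPKM in the control against 50.1 FPKM (replicate 2) and 47.4 FPKM (replicate 3) with CD137, both below the control. The mean of 48.8 ± 1.94 FPKM (SD, n = 2) was 0.806 of the control, a log2 fold change of -0.31 ± 0.05 (SE, limma adjusted p = 0.00998), on 3907 control reads against 3182 and 3029. Its substrate genes were lower by more, Pcna at 0.627, Fancd2 at 0.626 and Fanci at 0.518 of the control. The partner of Usp1, Wdr48, was at 17.44, 17.45 and 16.61 FPKM and did not pass. Usp12 and Usp46, which also bind WDR48, were at 1.11-fold and 1.17-fold of the control and did not pass. Usp37, which stabilises cyclin A at the start of DNA synthesis, fell from 11.9 FPKM to 9.53 and 10.04 FPKM (0.821 of the control, limma adjusted p = 0.0324). Its gene span, introns included, shares 24803 bases with that of the oppositely oriented Cnot9. Cnot9 was at 46.5 FPKM in the control and 36.3 and 35.9 FPKM with CD137. The overlap of exons was not measured, and only reads from shared exons could not be told apart without strand. Of 27 expressed partners and substrates of the nuclear members, 2 rose, both regulators of p53 (Mdm4 at 1.41-fold and Mdm2 at 1.204-fold), and 9 fell. That is 40.7 percent called, against 42.6 percent of all expressed genes.

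Usp7, the protease of MDM2 and p53, was at 33.6 FPKM in the control and 30.3 and 32.0 FPKM with CD137, and did not pass (0.928 of the control, limma adjusted p = 0.183). Trp53 did not pass either. Usp22, the deubiquitinase of the SAGA coactivator, was at 19.5 FPKM in the control and 21.1 and 21.6 FPKM with CD137 (limma adjusted p = 0.104). The histone deubiquitinase Usp3 and the checkpoint protease Usp28 were at 1.11-fold and 1.08-fold of the control without passing. Among members of organelles and RNA granules, 5 of 6 did not pass (16.7 percent called, against 42.6 percent of all expressed genes). Usp8 of the endosome was at 33.7, 35.0 and 34.3 FPKM, Usp10 of stress granules at 17.7, 18.0 and 17.3 FPKM, and Usp30 of mitochondria at 11.1, 11.5 and 11.7 FPKM. The interval of the read ratio was 0.937 to 1.102 for Usp10 in replicate 2 and 0.898 to 1.06 in replicate 3. Usp19 of the endoplasmic reticulum was at 28.7, 26.3 and 28.1 FPKM. Usp39 of the spliceosome, an inactive family member, was at 1.09-fold and the nucleolar Usp36 at 1.005-fold of the control. Usp53, Usp54 and the misnamed Usp6nl did not pass.

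Pairs of close relatives were set side by side. Of 16 pairs of paralogues, 11 had both genes expressed. In 1 pair the genes passed in opposite directions, in 4 pairs 1 gene passed, and in 6 pairs neither did. Of all expressed genes, 24.4 percent were called higher and 18.2 percent lower. The counts were not set against pairs of unrelated genes, so they do not show that paralogues diverge. Usp2 rose 1.90-fold while Usp21 fell to 0.826 of the control, so the Usp2 level went from 0.178 of the Usp21 level in the control to 0.419 and 0.4004 in the CD137 libraries. The Usp47 and Usp7 pair drew together, with Usp7 at 1.72 times the Usp47 level in the control and 1.13 and 1.204 times with CD137. Usp20 rose and Usp33 did not pass, which took the Usp20 level from 0.557 to 0.789 and 0.782 of the Usp33 level. Usp35 stayed far below Usp38, at 0.110 of its level in the control and 0.25 and 0.246 with CD137. Usp16 rose while Usp45 was at 13.3, 14.1 and 13.3 FPKM. With 1 control library the differences between paralogues were not tested. The pairs of Usp5 with Usp13 and of Usp9x with Usp9y could not be compared, since the second gene of each has no value in the table.

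**Figure D4:**
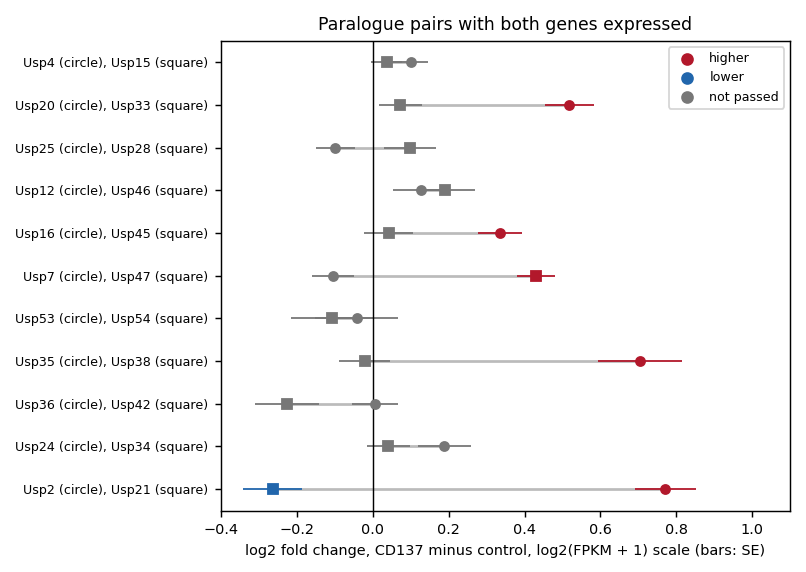
Log2 fold change (CD137 minus control, log2(FPKM + 1) scale, bars SE) of the 11 paralogue pairs with both genes expressed, circle for the first and square for the second gene named, red higher, blue lower, grey not passed. The widest gap is that of Usp2 (0.77) and Usp21 (-0.26).

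The 9 members below 1 FPKM in every library were left out of the fit of expressed genes, and none of them passed in the limma fit without a filter. Usp11, Usp27x and Usp17la were at 0.22 to 0.33 FPKM in the control and were higher in both CD137 libraries. Usp27x, a relative of Usp22, was at 0.31, 0.47 and 0.64 FPKM on 18, 27 and 37 reads. Usp11, a relative of Usp4 and Usp15, was at 0.22, 0.34 and 0.43 FPKM on 18, 29 and 37 reads. Usp17la, which belongs to a cluster of near-identical copies whose reads can be split between them, was at 0.33, 0.45 and 0.70 FPKM on 15, 20 and 33 reads. For all 3 genes the exact 95% interval of the read ratio excluded 1 in CD137 replicate 3 and included it in CD137 replicate 2. Usp29, Usp43, Usp44, Usp50, Usp51 and Usp17le stood at 0.10 FPKM or less, and those with a solution had 0 to 3 reads a library. The 6 listed genes without a value, Usp13, Usp26, Usp9y and 3 Usp17 copies (Usp17lb, Usp17lc and Usp17ld), are not analysed here.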

How the data were processed

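Each gene of the table carries 1 FPKM value for each of the 3 libraries, which the authors deposited with 2 decimals. The submitters' processing notes name HISAT2, Bowtie2, RSEM and mm10 but give them no roles, and they do not state strandedness. Log2 ratios and p-values of library pairs are also the authors', from a Poisson test per the file headers, and their deposited adjusted values, some above 1, were treated as a score. Groups came from the sample titles. Of 21990 genes, 16003 had a value, and 1 broken line was left out. The members and gene lists were chosen with earlier results of these data known.

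Differences were tested with limma 3.58.1 in R 4.3.3 (moderated variance, trend over mean level) on log2(FPKM + 1). The test covered 10720 genes reaching 1 FPKM in some library, with Benjamini-Hochberg adjustment over all of them, a threshold of 0.05 and 1 residual degree of freedom. Reads were solved from the authors' 3 pairwise p-values, which follow a two-tailed form of the Audic-Claverie distribution. The search was limited to read ratios within 4 percent of the FPKM ratio, or 15 percent where no solution was found. A single solution was found for 50 of 54 members. Both procedures were tested on simulated data. Intervals from reads cover counting error only.

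Every member could be named, with full values for Cyld, Tnfaip3, Otulin, Uchl3, Usp18 and up to 12 members past the threshold in each direction. Outside the members, the rule allowed markers, direct partners and up to 4 genes a list. Spata2, Herc6, Mdm4, Rps27a and the genes overlapping a member were added after their values were seen, and some listed genes are not reported here. Alternatives were another pseudocount, 2 filters, another scaling, no trend and leaving out each CD137 library.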

Additional observations from a re-analysis of the deposited data

How the results depend on the processing

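No paired analysis was possible because the groups share only replicate number 2 among the libraries with a column. Without a filter on low values limma called 0 of 16003 genes (5281 at an unadjusted p under 0.05), so 0 members were higher and 0 lower, and the members' median log2 fold change was 0.042 over all 54; the members' adjusted p ran from 0.0802 to 0.235 for those called in the fit of expressed genes. A pseudocount of 0.1 kept all 16 calls. Keeping genes at 5 FPKM or more dropped Usp35 from the test, left the other 15 calls and gave a median of 0.075. Rescaling by the median of ratios kept 15 calls and lost Usp9x, with a median of 0.015, and turned the sign of Otulin to -0.013. Without the mean-variance trend 13 calls were shared, Usp9x, Usp14 and Usp21 were lost, and Usp31 and Usp42 were gained. Leaving out either CD137 library leaves no residual degree of freedom and hence no calls; the members' median was then 0.065 to 0.082, and no named member changed direction. Log2 ratios of solved reads, an alternative chosen after seeing the data, moved 6 named members by more than the replicate spread and 9 by less, and reversed none. These ratios also carry no pseudocount: for Usp18, Usp2, Usp20, Usp47 and Cyld the FPKM fold was 0.9986 to 1.004 times the read fold, and for Usp35 it was 1.14 times. The search allowed only read ratios within 4 percent, or failing that 15 percent, of the FPKM ratio. Closeness of the 2 measures and the lack of reversals were therefore largely set in advance. The causes of the shifts without a filter, with rescaling and without the trend were not tested. Counting error limits Usp18, Usp35 and Usp2 most among the called members, and the 9 members below 1 FPKM rest on few reads.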
